A study of Mus musculus with 12 samples.

Results

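The 4 K1 pulldown libraries examined here are 4 of the 12 libraries of a study of double-stranded RNA in mouse intestinal epithelium, chosen because their titles name the K1 antibody. They compare 2 animals that lost Kat2a and Kat2b (DKO) with 2 control animals, within K1 only. The remaining 8 libraries are the input RNA and the pulldowns with a related antibody, J2, from the same 4 animals, and they serve as background. Every animal was an adult female of 3 months. The DKO animals received tamoxifen by intraperitoneal injection at 100 mg/kg on 4 consecutive days, and the controls received the ethanol and corn oil solvent on the same schedule, so loss of the genes and exposure to tamoxifen cannot be told apart. The titles call the samples whole intestine epithelial cells, while the protocol takes the epithelium from the proximal part of the small intestine. It was released with EDTA 2 days after the last injection, lysed, and its soluble RNA captured with the K1 antibody on beads. The labels used here name neither the driver of the recombinase nor the alleles, and the control genotype is given only as control.

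Kat2a and Kat2b encode closely related lysine acetyltransferases that sit in the SAGA and ATAC complexes and modify histones near active genes. K1, like J2, is a monoclonal antibody that recognises the backbone of double-stranded RNA with little regard for sequence. In cells such duplexes come from viruses, from transcription of both strands of the mitochondrial genome and from inverted repeats in messenger RNA. Sensors such as MDA5 (Ifih1), RIG-I (Ddx58) and PKR (Eif2ak2) bind them, and MDA5 and RIG-I signal through MAVS and induce interferon genes. A change in a K1 library can come from how much of an RNA the cell holds or from how much of it the antibody captures. Input values therefore stand beside K1 values for part of the results below. A K1 change given without its input value does not tell the one from the other.

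The control K1 libraries held 16139531 and 14035066 gene-assigned counts and the DKO K1 libraries 5559033 and 2220291. The DKO libraries thus rest on fewer counts per gene, and 10922 and 9999 genes reached 10 counts in them, against 13453 and 13017 in control. Reads aligned to several places, which were not assigned to genes, were 6.02% and 6.56% of the listed reads in the control K1 libraries, against 25.9% and 46.7% in those of DKO, where input libraries had 6.97% to 8.05%. The correlation of log2 CPM (counts scaled to a common library size) across genes was 0.989 between the control libraries and 0.928 between the DKO libraries. Scaling removes any difference in the total RNA captured, no control antibody was analysed here, and in bulk RNA fewer cells of a type cannot be told apart from less RNA per cell.

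The targeted genes were lower in DKO in K1. Kat2a (ENSMUSG00000020918.14, chromosome 11) had 617 and 498 counts in control and 41 and 22 in DKO, or 32.5 ± 1.21 against 9.77 ± 1.08 CPM (SD, n = 2, scaled by TMM). This is a log2 fold change of -1.75 (SE 0.296, adjusted p 0.00752 in edgeR's quasi-likelihood test, as for all K1 values that follow). Kat2b (ENSMUSG00000000708.14, chromosome 17) had 1178 and 908 counts against 145 and 62, or 60.7 ± 4.24 against 30.8 ± 1.52 CPM, with a log2 fold change of -0.98 (SE 0.250, adjusted p 0.0280). The DKO libraries did not overlap the control libraries for either gene, which was so for 67% of all genes tested. In input the log2 fold changes were -0.88 for Kat2a and -1.51 for Kat2b. Kat2a lost its call without control replicate 1 (-1.73, adjusted p 0.0532). Kat2b lost its call without control replicate 1 (-0.93, adjusted p 0.354), without control replicate 2 (-1.07, 0.235), in DESeq2 (-0.92, 0.0636), in limma voom (-0.96, 0.0547) and with gene counts thinned to the smallest library total (-0.84, 0.0585), at log2 fold changes close to the one above. Counts were summed per gene, so exon loss itself was not visible.

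Beyond the targeted genes the change was broad. Of 12888 genes tested, 3487 passed the threshold of an adjusted p under 0.05 (27.1%), with 1695 higher in DKO (13.2%) and 1792 lower (13.9%). A gene with few counts in 1 group passed the count filter through the other group. This favours a call of higher where that other group is DKO and of lower where it is control. The median log2 fold change was 2.27 among the higher genes, 537 of which rose at least 8-fold, and -1.59 among the lower genes, 204 of which fell at least 8-fold. The median over all genes tested was -0.02. Without TMM scaling that median moved to -0.39 and the calls split into 1148 higher and 3036 lower, so list medians are best read against the median of all genes. Leaving out 1 control library cut the calls to 1149 or 1298, and leaving out 1 DKO library raised them to 5343 or 5819. In each such fit the lone library is assumed to vary like the other pair, which alone sets the spread. The part this had in the counts was not tested, and a lost call there is not by itself a smaller change.

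Among called, non-overlapping genes with a mean of at least 50 counts, leaving out predicted and clone-based gene names such as Gm numbers, the 12 largest rises included Slfn4, Phlda3, Fut2, Areg and the interferon-induced genes Ifit2, Oas2, Isg20 and Bst2. Slfn4, a Schlafen family gene, had 10 and 12 counts in control and 1256 and 1461 in DKO, or 0.652 ± 0.157 against 488 ± 300 CPM (SD, n = 2), a log2 fold change of 9.53 (SE 0.676, adjusted p 0.00168). Fut2, the fucosyltransferase that decorates the epithelial surface in infection and inflammation, had 36 and 18 counts against 1036 and 472. Its DKO libraries lay at 228 and 226 CPM and its log2 fold change was 7.18 (SE 0.390). Areg, which encodes the EGF receptor ligand amphiregulin, had 56 and 45 counts against 1551 and 418, for a log2 fold change of 6.52 (SE 0.414). Phlda3, an inhibitor of AKT that p53 induces, had 4 and 10 counts against 153 and 203, for 7.24 (SE 0.725). The stem cell antigen gene Ly6a had 16 and 6 counts against 306 and 69, for 6.29 (SE 0.550). Rasd1, a small GTPase gene, had 48 and 17 counts against 1093 and 222, for 6.54 (SE 0.599), and Ltf, which encodes the iron-binding antimicrobial protein lactoferrin, had 56 and 30 against 994 and 174, for 5.93 (SE 0.563). In each of these genes both DKO libraries exceeded both control libraries, which their choice fixes. In input these genes rose as well, by 6.70 for Slfn4, 7.74 for Fut2, 5.17 for Areg and 6.21 for Phlda3 on the log2 scale. Ly6a rose by 7.17 there, Rasd1 by 6.84 and Ltf by 4.94. Eno1b, at 7.01, is uncertain because 92.2% of its transcript is near-identical to another gene, and Slfn4 shares 22.6% of its transcript in this way.

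The 12 largest falls by the same limits included Lct, Gstm3, Cubn, Lrat and Cyp1a1. Lct, which encodes the brush border enzyme lactase, had 15693 and 25112 counts in control K1 and 152 and 48 in DKO, or 1222 ± 528 against 28.2 ± 7.35 CPM (SD, n = 2), a log2 fold change of -5.42 (SE 0.515, adjusted p 0.00184). Gstm3, a glutathione transferase gene, went from 15769 and 13474 counts to 174 and 45, for -4.82 (SE 0.431). Cubn, which encodes the vitamin B12 receptor cubilin, went from 812 and 1720 counts to 7 and 2, for -5.83 (SE 0.630), and its exons overlap those of Gm13270. Lrat, which esterifies retinol for storage, went from 592 and 336 counts to 5 and 1, for -4.89 (SE 0.516). In input the log2 fold changes were -5.31 for Lct, -3.99 for Gstm3, -5.64 for Cubn and -3.46 for Lrat. Several genes were nearly or wholly without counts in DKO K1. Ros1, a receptor tyrosine kinase gene, had 295 and 222 counts against 0 and 0, a fall of at least 14.3-fold when the DKO libraries are set to a floor of 3 counts each. Edaradd, an adaptor of the ectodysplasin receptor, had 241 and 199 counts against 0 and 0, a fall of at least 12.2-fold. Cyp1a1, the dioxin-inducible cytochrome, had 209 and 242 counts against 0 and 1, a ratio of 87.5 with a 95% counting interval of 15.6 to 3463. Fras1 had 272 and 556 counts against 3 and 0, a ratio of 53.5 (18.3 to 260.1), and Igip had 203 and 128 against 1 and 0, a ratio of 64.2 (11.4 to 2543). Vwa1 had 143 and 201 counts against 1 and 1, a ratio of 33.4 (9.17 to 277). Ugt1a9, at 127 and 243 counts against 1 and 0, and Cyp2c68, at 462 and 536 against 0 and 0, share 64.9% and 100% of their transcripts with near-identical relatives and are uncertain. All 12 rises and all 12 falls kept their calls under the 13 alternatives run.

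**Figure D1:**
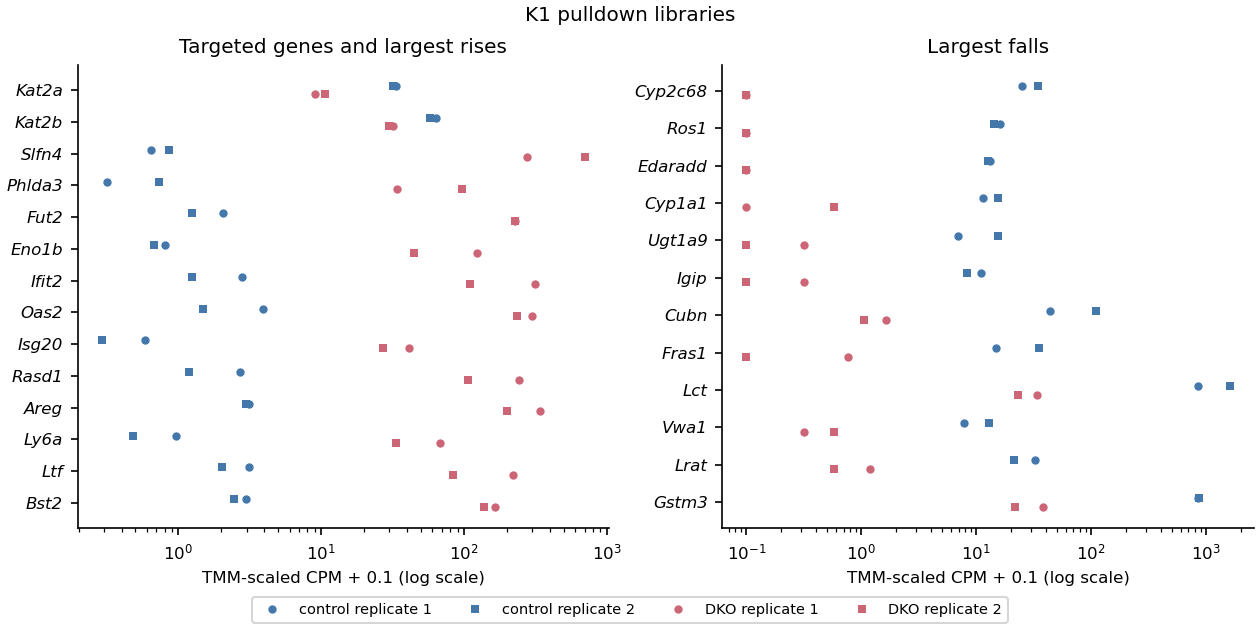
TMM-scaled CPM plus 0.1, on a log axis, of Kat2a, Kat2b and the 12 largest rises (left) and the 12 largest falls (right) in the 4 K1 libraries, with 1 point per library. For each of the 26 genes the DKO points lie on 1 side of the control points without overlap, which the choice of the rises and falls fixes.

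Genes induced by interferon rose together. Of the 40 listed genes 39 were tested in K1, and 36 were higher in DKO with none lower, where 13.2% of all genes tested were higher. The median log2 fold change over the 39 was 3.46. Ifit2, which binds viral and AU-rich RNA, had 50 and 18 counts in control and 1436 and 228 in DKO, a log2 fold change of 6.77 (SE 0.688). Oas2, which makes the 2-5A messenger when it meets double-stranded RNA, had 71 and 22 against 1350 and 491, for 6.65 (SE 0.536). Oas1b, of the same family but annotated as a polymorphic pseudogene and so uncertain, had 11 and 5 against 74 and 93, for 5.96 (SE 0.652). Bst2, which encodes tetherin, had 53 and 37 against 752 and 285, for 5.85 (SE 0.317), and Isg20, an RNA exonuclease gene named among the largest rises, had 9 and 3 against 187 and 56. Oas1b and Isg20 passed the count filter only through their DKO counts. Irf7, the transcription factor that amplifies the response, had the highest mean CPM of the list, uncorrected for length, with 203 and 179 CPM in control and 1813 and 2029 in DKO, for 3.33 (SE 0.396), though its exons overlap those of Phrf1. In all these genes the DKO libraries lay above the control libraries, as in all 1695 genes called higher. Among the members that did not pass were Lgals3bp, with a log2 fold change of 1.56, and Dtx3l, with 11552 and 6178 counts against 2403 and 435 and a log2 fold change of -0.46. The list took 0.254% and 0.183% of the K1 counts in control and 1.19% and 0.851% in DKO. In input, 39 of 40 members were higher (18.8% of all genes there), with a median of 3.15, and in J2 22 of 39 were higher, with a median of 3.00 (in J2 6.02% of all genes were higher and 6.16% lower). The difference between the K1 and input changes had a median of 0.27 over the 40 members, against -0.20 over all genes. Of these members 1 was called, Oas1b, with a difference of 2.64 (adjusted p 0.0411). Leaving out control replicate 1 or 2 left 30 or 27 members higher. Irf7 was no longer called without control replicate 2 (adjusted p 0.0587).

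The promoters of these genes were searched for the core of the interferon-stimulated response element, a known target of interferon signalling, written as GAAA, any 2 bases and GAAA, on either strand of the 300 bases from 250 before to 50 after the start. The motif was in 3.49% of the 27025 RefSeq promoter windows, in 3.16% of those of genes tested in K1, in 81 of 1128 windows of genes higher in DKO (7.18%), in 2.89% of those of lower genes and in 13 of 27 windows of the interferon list (48.1%). Bst2, Ifit3 and Rsad2 were picked after their values were seen, to show windows with matches, while Ifit2, named by rule, shows a window of a strongly raised member in which these letters do not occur. The windows, given from 5′ to 3′ on the strand of the gene with matches in capitals, are from RefSeq on GRCm38.p6.
Bst2 (chr8:71537423-71537722, minus strand): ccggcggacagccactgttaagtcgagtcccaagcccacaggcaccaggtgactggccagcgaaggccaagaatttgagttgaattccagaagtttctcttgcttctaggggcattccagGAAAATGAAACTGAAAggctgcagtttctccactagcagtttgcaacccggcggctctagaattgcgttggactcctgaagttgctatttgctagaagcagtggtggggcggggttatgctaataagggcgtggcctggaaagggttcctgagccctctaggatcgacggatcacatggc
Ifit3 (chr19:34583279-34583578, plus strand): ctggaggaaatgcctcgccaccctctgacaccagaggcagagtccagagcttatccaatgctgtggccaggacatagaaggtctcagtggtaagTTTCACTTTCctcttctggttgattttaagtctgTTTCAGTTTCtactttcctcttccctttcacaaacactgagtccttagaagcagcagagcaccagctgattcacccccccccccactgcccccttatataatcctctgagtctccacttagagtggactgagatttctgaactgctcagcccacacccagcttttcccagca
Rsad2 (chr12:26456403-26456702, minus strand): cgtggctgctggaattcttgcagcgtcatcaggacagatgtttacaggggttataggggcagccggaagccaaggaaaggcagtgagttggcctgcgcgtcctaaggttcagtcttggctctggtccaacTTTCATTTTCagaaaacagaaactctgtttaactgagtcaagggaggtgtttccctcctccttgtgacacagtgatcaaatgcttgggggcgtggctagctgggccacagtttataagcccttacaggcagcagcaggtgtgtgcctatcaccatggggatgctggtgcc
Ifit2 (chr19:34550444-34550743, plus strand): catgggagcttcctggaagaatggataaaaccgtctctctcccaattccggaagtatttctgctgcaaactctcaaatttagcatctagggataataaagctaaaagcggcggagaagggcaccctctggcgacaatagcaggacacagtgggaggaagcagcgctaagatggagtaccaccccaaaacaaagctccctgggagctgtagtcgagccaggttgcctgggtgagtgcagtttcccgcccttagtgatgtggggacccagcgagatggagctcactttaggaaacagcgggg
In K1, Ifit3, a partner of the other IFIT proteins, had 85 and 65 counts against 947 and 248, a log2 fold change of 5.23 (SE 0.381), and Rsad2, the antiviral radical enzyme viperin, had 290 and 132 against 1946 and 423, for 4.71 (SE 0.517). A match is a description of the letters in the window and was not tested as a binding site.

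Among genes that sense or edit double-stranded RNA, 7 of 23 tested were higher and 3 lower in K1, with a median log2 fold change of 0.46. Over all genes tested 13.2% were higher and 13.9% lower, so the share lower is near that of all genes. Dhx58, which encodes the RIG-I-like receptor LGP2, rose from 133 and 93 counts to 794 and 185, by 4.33 on the log2 scale (SE 0.403). Ifih1 rose by 1.81 (SE 0.329), from 88.9 and 80.9 CPM to 366 and 230 CPM. The editing enzyme gene Adar and Ddx58 had log2 fold changes of 1.68 and 1.54. Mavs, the adaptor downstream of both receptors, went the other way, from 2290 and 1932 counts to 107 and 63, or from 123 ± 0.749 to 26.8 ± 4.72 CPM (SD, n = 2), a log2 fold change of -2.21 (SE 0.268, adjusted p 0.00299). Dicer1, which cuts double-stranded precursors, was lower, at -1.68. In Mavs the fall in K1 exceeded that in input, where the change was -0.98 (difference adjusted p 0.0499). Trim25, the member with the highest mean CPM, had 331 and 282 CPM in control and 671 and 396 in DKO and did not pass (adjusted p 0.145). Without control replicate 1 the adjusted p was 0.147 for Adar, 0.148 for Ddx58 and 0.111 for Ifih1, and without control replicate 2 it was 0.189, 0.173 and 0.140. Then 1 member in place of 7 was higher with either control library left out, and 12 were higher without DKO replicate 2.

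Other gene families of the interferon response rose as well. The counts that follow compare with 13.2% higher and 13.9% lower among all genes tested. Among guanylate-binding proteins and immunity-related GTPases, 12 of 15 tested were higher and none lower, with a median of 3.21. Iigp1 had 7 and 3 counts in control and 105 and 43 in DKO, a log2 fold change of 6.18, Gbp3 had 43 and 20 against 320 and 68, for 4.84, and Gbp5 had 14 and 6 against 98 and 12, for 4.60. Iigp1 and Gbp5 passed the count filter only through their DKO counts, which favours a call of higher. Igtp, the member with the highest mean CPM, did not pass, at 1.79 (adjusted p 0.0635). Of 6 Schlafen genes tested 5 were higher, among them Slfn5 at 5.25. Of 22 genes of MHC class I presentation 11 were higher and none lower, with a median of 1.16. H2-Q6 had 205 and 69 counts against 833 and 244, for 4.27, with 23.6% of its transcript near-identical to relatives. H2-Q7 had a log2 fold change of 3.94, Nlrc5, the activator of these genes, 3.23, and H2-K1, the classical class I heavy chain gene, 2.31. Leaving out control replicate 1 or 2 left 5 class I genes higher, with H2-K1 at an adjusted p of 0.318 and 0.187, while 17 were higher without DKO replicate 2. Without control replicate 2, 6 of the GTPase genes were higher.

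Cell death genes had no common direction, with 6 of 24 higher and 4 lower and a median of 0.05. Over all genes tested 13.2% were higher and 13.9% lower, so the share lower is near that of all genes. The necroptosis pair Ripk3 and Mlkl and the DNA sensor gene Aim2 were higher, at log2 fold changes of 2.88, 2.28 and 3.23, with Mlkl at 267 and 155 counts against 300 and 108. Pycard, the inflammasome adaptor, was lower, from 1683 and 1041 counts to 18 and 15, a log2 fold change of -3.90 (SE 0.387). Gsdmc4, a gasdermin gene, and Nlrp6, an epithelial inflammasome receptor gene, were lower at -2.91 and -1.50. Without control replicate 1 or 2, 2 genes of the list were higher, Aim2 had an adjusted p of 0.0593 and 0.0815, and Nlrp6 of 0.228 and 0.216.

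Targets of p53 and of the integrated stress response were more often higher than lower, where 13.2% of all genes tested were higher and 13.9% lower. Among p53 targets 14 of 24 were higher and 1 lower, with a median of 1.59. Beside Phlda3, Psrc1 had 38 and 40 counts in control and 81 and 158 in DKO, a log2 fold change of 4.31, and Plk2, a polo-like kinase gene, had 30 and 18 against 98 and 66, for 4.23. Sesn1 was the member called lower, at -1.95. Cdkn1a, which encodes the cell cycle inhibitor p21 and had the highest mean CPM of the list, had 181 and 173 CPM against 502 and 261 and did not pass (adjusted p 0.0651). Of 26 genes of the integrated stress response 11 were higher and 1 lower, with a median of 0.98. Gdf15, a secreted stress cytokine gene, had 11 and 18 counts against 166 and 103, for 5.62 (SE 0.435). Chac1, which degrades glutathione, had 23 and 1 counts against 32 and 17, for 3.46, and Ppp1r15a, the inducible phosphatase subunit that ends the response, had 51 and 57 against 96 and 49, for 2.80. Its constitutive relative Ppp1r15b was lower at -1.47 (adjusted p 0.0490). With control replicate 1 or 2 left out, 9 or 8 p53 targets and 5 or 4 stress response genes were higher, Chac1 had an adjusted p of 0.131 without control replicate 2, and Ppp1r15b had 0.368 and 0.202. Without DKO replicate 2, 20 stress response genes were higher.

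Mitochondrial RNA was higher in the DKO pulldowns and not in the RNA they were taken from. Among the 13 protein-coding genes the mitochondrial genome carries, 11 were higher in K1 and none lower, where 13.2% of all genes tested were higher. Their median log2 fold change was 3.12. In input none was higher and 3 were lower, with a median of -0.39. mt-Nd5, a subunit of respiratory complex I, had 82064 and 71114 counts in control K1, against 245739 and 206320 in DKO, although the DKO libraries were shallower. The log2 fold change of mt-Nd5 was 4.09 (SE 0.974, adjusted p 0.0222). mt-Nd6, the 1 protein-coding gene read from the light strand, had 18907 and 18422 counts against 66479 and 51575, for 4.16 (SE 0.710). mt-Nd5 and mt-Nd6 overlap on opposite strands, and counts made without strand cannot separate them. mt-Atp8 had 33 and 35 counts against 155 and 138, for 4.62 (SE 0.433), the largest log2 fold change of the list, and overlaps mt-Atp6. mt-Nd1 and mt-Nd2 had 3.57 and 3.62. The members that did not pass were mt-Co1, at 1.35 (adjusted p 0.102), and mt-Cytb, at 0.97 (adjusted p 0.115). The value of mt-Co1 is uncertain because 100% of its transcript is near-identical to other genes. In the ribosomal RNAs of the organelle, mt-Rnr1 had 841 and 711 counts in control and 2882 and 2596 in DKO, for 4.37 (SE 0.459), and mt-Rnr2 had 8252 and 7365 against 32413 and 27208, for 4.46 (SE 0.637). Both DKO libraries exceeded both control libraries in each of the 13 protein-coding and 2 ribosomal genes in CPM, where 67% of all genes tested did not overlap in 1 direction or the other.

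The same RNAs had some of the largest differences between the K1 and the input change, tested as an interaction over 8 libraries. Of 15908 genes 870 were called (5.47%), 218 with a higher change in K1 (1.37%) and 652 with a lower one (4.1%). All 11 of the mitochondrial genes higher in K1 were higher in this test, with a median difference of 3.44 over the 13, against -0.20 over all genes. mt-Rnr1 differed by 5.38 (SE 0.664, adjusted p 0.00659), with input counts of 41 and 129 in control against 26 and 43 in DKO. mt-Rnr2 differed by 5.21 (SE 0.628), mt-Atp8 by 4.71 (SE 0.432), mt-Nd6 by 4.43 (SE 0.572) and mt-Nd5 by 4.31 (SE 0.733). In all 4 animals K1 and input come from the same tissue, and with the animal as a block 1912 genes were called, 486 higher and 1426 lower. Leaving out 1 control animal removed nearly all calls, to 0 (1270 at an unadjusted p under 0.05) or 3, so that mt-Rnr1 then differed by 5.91 and 4.40 with an adjusted p of 0.152 and 0.174, while mt-Atp8 stayed called without control replicate 2 (0.0499). In the K1 comparison itself, leaving out control replicate 1 or 2 left mt-Nd5 at 4.05 and 4.08 (adjusted p 0.502 and 0.463), mt-Nd6 at 4.04 and 4.24 (0.273 and 0.226) and mt-Rnr2 at 4.40 and 4.47 (0.128 and 0.110). mt-Nd1 (0.345 and 0.357) and mt-Nd2 (0.205 and 0.205) were likewise not called, and 6 of the 13 protein-coding genes stayed called with either one left out. Leaving out 1 DKO library left 13 or 12 of them higher.

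**Figure D2:**
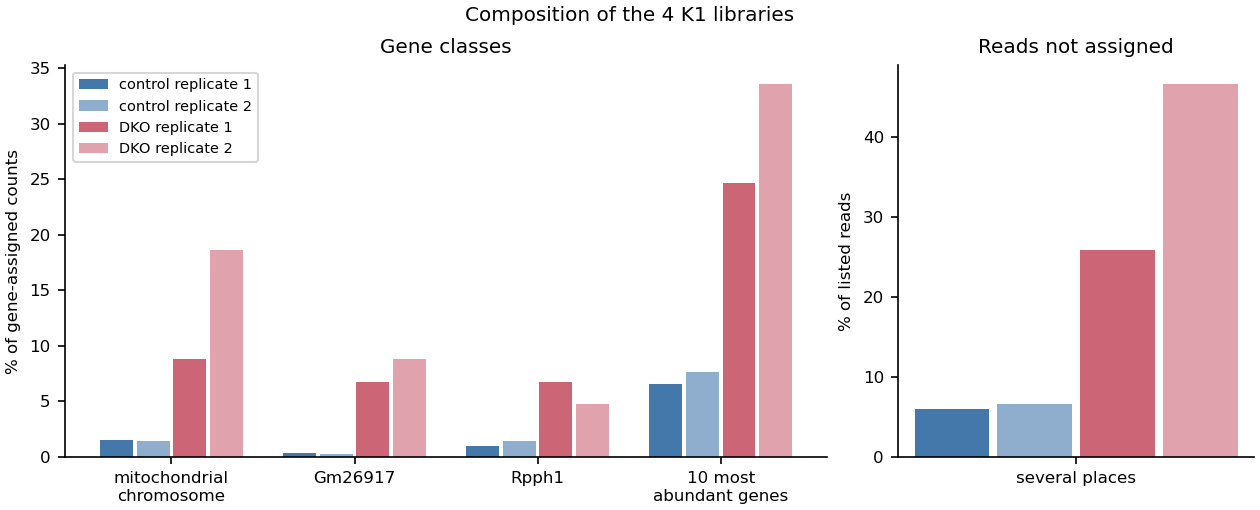
Shares of the 4 K1 libraries, in percent of gene-assigned counts (left) for the mitochondrial chromosome, 2 abundant noncoding RNAs and the 10 most abundant genes, and in percent of all listed reads (right) for reads aligned to several places, with 1 bar per library. Both DKO bars are above both control bars in every measure, and DKO replicate 2 is the highest in all but Rpph1.

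Mitochondrial and abundant noncoding RNAs took a larger share of the DKO libraries. The mitochondrial chromosome took 1.55% and 1.4% of the K1 counts in control and 8.76% and 18.6% in DKO, or 1.47% ± 0.102 against 13.7% ± 6.98 (SD, n = 2), while in input it took 4.28% ± 0.0684 against 3.25% ± 0.0332. Gm26917, annotated as a long noncoding RNA on chromosome 17, took 0.352% and 0.279% in control against 6.74% and 8.82% in DKO, and Rpph1, the RNA of ribonuclease P, took 0.935% and 1.45% against 6.69% and 4.72%. In input Gm26917 rose as well, from 3.46% ± 0.381 to 8.06% ± 0.296, a log2 fold change of 1.36 (adjusted p 0.0131). The difference between its K1 and input changes was 3.47 (adjusted p 0.0394). Rpph1 took 0.433% ± 0.0121 against 0.456% ± 0.0129 of the input counts. Nuclear protein-coding genes took 95.6% ± 0.181 of the counts in control and 69.4% ± 9.17 in DKO. In each of these shares the DKO libraries did not overlap the control libraries, and the exact permutation test of 2 against 2 gave 0.333, the smallest p it allows. The genes with the most counts in control K1 were Actb at 1.27%, Rpph1, Fcgbp, Pigr, Eef1a1, Eef2, Anpep, Apob, mt-Nd5 and Apoa1, which are mostly messages of abundant cell and secretory proteins. In DKO K1 they were Gm26917, mt-Nd5, Rpph1, mt-Nd1, mt-Nd6, Rn7sk, mt-Rnr2, mt-Nd2, Actb and mt-Co1. Gm26917 had a log2 fold change of 4.99 (SE 1.02, adjusted p 0.0136), which was not called without control replicate 1 or 2 (0.414 and 0.406). Rpph1, at 2.65 (adjusted p 0.0675), did not pass. Rn7sk, an inhibitor of transcription elongation, had 1560 and 1746 CPM against 3153 and 17147 and did not pass, with a log2 fold change of 2.62 (adjusted p 0.0563) that was 0.99 without DKO replicate 2. It is uncertain because 72.8% of its transcript is near-identical to other genes.

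Several small noncoding RNA classes were higher in K1 as well among the genes with enough counts to be tested, and long noncoding RNAs as a class were not. Of 376 long noncoding genes tested 75 were higher and 42 lower, where 13.2% of all genes tested were higher and 13.9% lower. Their median was 0.17, and the median difference from input was -0.49 over 1203 genes. Of 16 tested genes annotated as misc_RNA, a class that holds the RNAs of the signal recognition particle and telomerase, 14 were higher in DKO and none lower, with a median of 3.86. The genes named in this paragraph were chosen after their values were seen, apart from Snora57 and Snora23. Gm24514 had 441 and 522 counts in control and 4946 and 6989 in DKO, for 6.28 (SE 0.707), and Gm26461 529 and 684 against 3865 and 5545, for 5.6 (SE 0.688), while their input changes were 0.32 and 0.30. Rn7s1 and Rn7s2, copies of the signal recognition particle RNA, had log2 fold changes of 4.33 and 4.55, against 0.50 and 0.27 in input. Of 20 small nucleolar RNAs tested, out of 1507 annotated, 12 were higher and 2 lower, with a median of 3.33. With no count filter that median was -1.77, so the rise holds only for those that passed the filter. A gene with few control counts, such as Snora57, passed it through its DKO counts. The difference from input was called higher in 6 of 45. Snora57, which guides pseudouridylation, had 0 and 2 counts in control and 26 and 28 in DKO, a ratio of 139 with a counting interval of 36.7 to 1179. Snora23 had 533 and 1178 counts against 1357 and 700, for 2.61, where the raw counts overlap and the CPM values of 28.8 and 74.8 against 298 and 335 do not. Malat1, a nuclear long noncoding RNA, had 4788 and 3133 counts against 8585 and 11384, for 4.00 (SE 0.644, with 1.16 in input), and Neat1, the scaffold of paraspeckles, 409 and 309 against 428 and 205, for 2.20 (SE 0.251, with 1.09 in input). Without control replicate 1 or 2, 4 or 7 small nucleolar RNAs were higher, and without control replicate 2 Malat1 had an adjusted p of 0.0622. Snora23 was not called without control replicate 1 (0.0733). Without DKO replicate 2, the K1 change of Gm24514 was 5.31 and that of Malat1 3.10.

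The largest fitted rises of all were in 3 genes that most of the counts of 1 library carry. Gm10800, Gm21738 and Gm10801, also picked after their values were seen, had log2 fold changes of 11.22, 10.90 and 10.08. Gm10800 had 4 and 5 counts in control, 116 in DKO replicate 1 and 2696 in DKO replicate 2. Without DKO replicate 2 its log2 fold change was 6.61. Gm21738, with 0 and 1 counts against 11 and 335, and Gm10801, with 0 and 2 against 12 and 324, were likewise highest in DKO replicate 2.

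Messages of cytosolic ribosomal proteins and histones were often lower. Of 79 tested genes for cytosolic ribosomal proteins, 39 were lower and none higher, where 13.9% of all genes tested were lower, and the median was -1.02. Rpl5 had 11634 and 10458 counts in control and 425 and 223 in DKO, a log2 fold change of -2.69 (SE 0.322), Rpl29 had 2555 and 1975 against 103 and 61, for -2.36, and Rpl39 had 92 and 64 against 4 and 2, for -2.30. These genes have processed copies elsewhere in the genome, and 96.4%, 50.9% and 25.7% of their transcripts are near-identical to another gene. The whole list of cytosolic ribosomal protein genes took 1.41% and 1.47% of the counts in control and 0.426% and 0.626% in DKO. In input 48 of 79 were lower, with a median of -0.59, where 17.1% of all genes were lower. Among replication-dependent histone genes 31 of 43 tested were lower and 1 higher, with a median of -2.03, against 42 of 48 lower in input with a median of -1.91. Hist1h2bk had 217 and 165 counts against 1 and 4, Hist1h2bn 601 and 414 against 12 and 8, and Hist1h3b 154 and 106 against 1 and 3, with 66.5% to 100% of these transcripts near-identical to other histone genes. Of 69 nuclear genes of the respiratory chain 10 were lower and 2 higher, with a median of -0.43, a share lower that is near the 13.9% of all genes. Cox8a went from 2241 and 1790 counts to 155 and 50, for -2.0, and Ndufa4 from 506 and 384 to 32 and 11, for -2.04, while their input changes were -0.14 and -0.68 (difference adjusted p 0.0203 and 0.0303). Mitochondrial ribosomal protein genes had 3 lower and 2 higher of 76, with a median of -0.25. The zinc finger genes named Zfp, whose repeats resemble each other, had 38 lower and 14 higher of 257 tested, with a median of -0.33, which is likewise near the share of all genes. Without control replicate 1 or 2, 11 or 10 ribosomal protein genes, 12 or 16 histone genes and 10 or 11 Zfp genes were lower, and Rpl39 had an adjusted p of 0.396 and 0.254. Hist1h3b was not called without control replicate 1 (0.0838), and Rpl39 was not called in DESeq2 (0.0686) or limma voom (0.0871). The nuclear respiratory chain genes had 2 or 3 lower without control replicate 1 or 2, 24 or 18 without DKO replicate 1 or 2 and 23 without TMM scaling. Without DKO replicate 2, 67 ribosomal protein genes and 81 Zfp genes were lower.

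**Figure D3:**
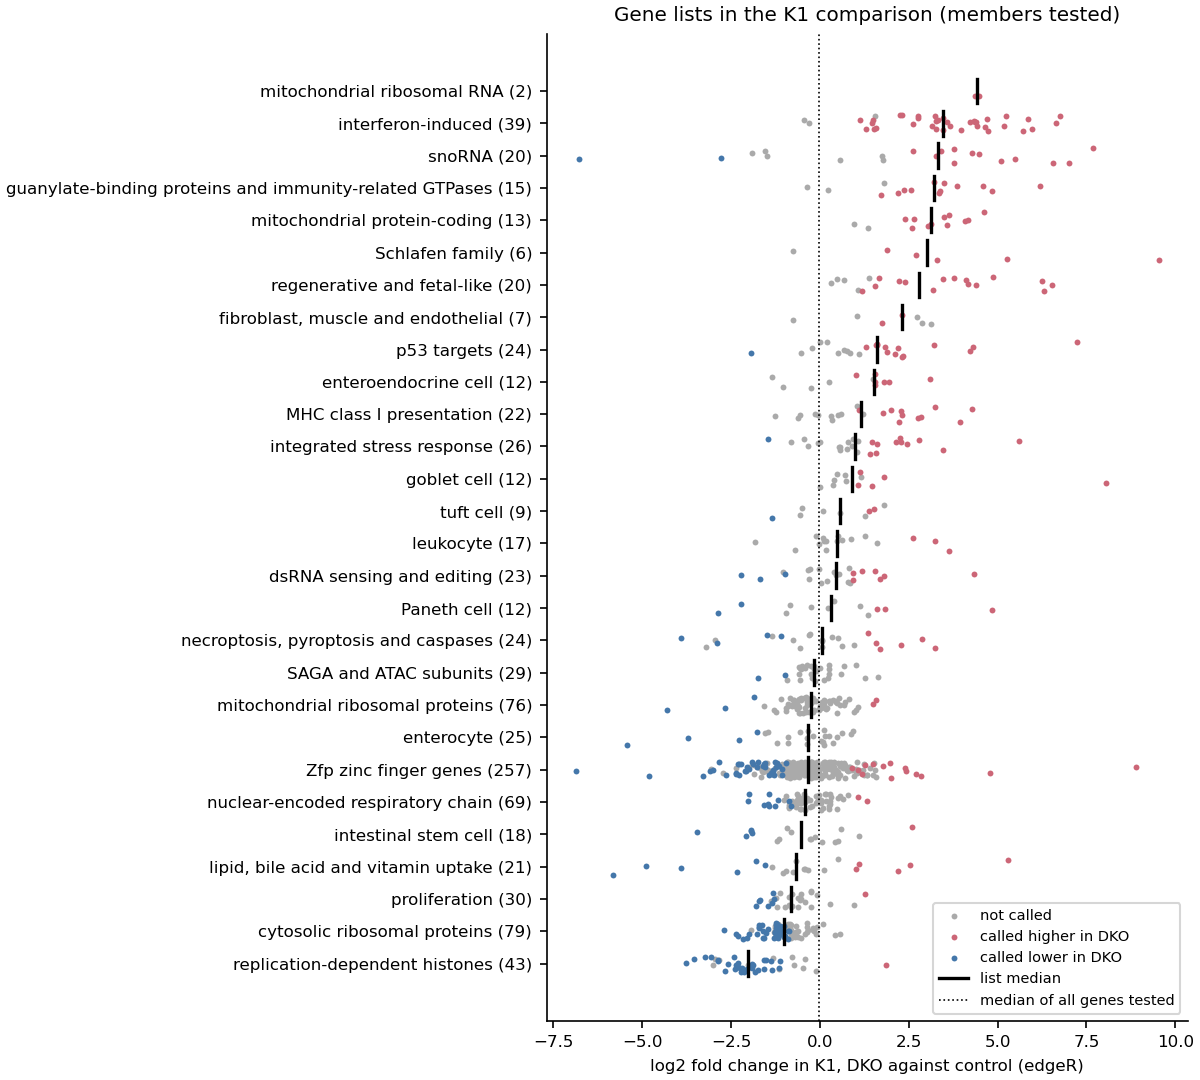
Log2 fold change in K1, DKO against control, of each tested member of 28 gene lists, coloured by call, with the median of each list as a black bar and the median of all 12888 genes tested as a dotted line. All 13 mitochondrial protein-coding genes and 37 of 39 interferon-induced genes lie to the right of 0, and 42 of 43 histone and 76 of 79 cytosolic ribosomal protein genes lie to the left.

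Genes that mark the epithelial cell types moved less uniformly, and their counts are to be read against the 13.2% higher and 13.9% lower among all genes tested. The 25 enterocyte genes were all tested and had 4 lower and none higher, with a median of -0.33, a share near that of all genes, and they took 3.33% and 4.10% of the K1 counts in control and 4.13% and 1.54% in DKO, which overlap. Beside Lct, Cyp3a11 fell from 4496 and 8400 counts to 222 and 18, for -3.70, and Apoc3 from 1795 and 2178 to 142 and 33, for -2.29. The DKO libraries differed here, with 17 enterocyte genes lower without DKO replicate 1 and 9 higher without DKO replicate 2. Of 21 genes for uptake of lipids, bile acids and vitamins 6 were lower and 5 higher. Slc10a2, the ileal bile acid transporter gene, had 7 and 3 counts in control and 45 and 29 in DKO, for 5.28 (SE 0.566). Goblet cell genes had 5 higher of 12 and none lower, with a median of 0.90. Retnlb, a goblet cell antimicrobial gene, had 3 and 0 counts against 105 and 63, a ratio of 289 (97.1 to 1414), and Guca2a and Spdef had log2 fold changes of 1.82 and 1.46. Muc2, the mucin gene, had 2252 and 2669 CPM in control and 4925 and 1958 in DKO and did not pass. Enteroendocrine genes had 7 higher of 12, with a median of 1.52, among them Neurod1 at 3.10, Sct at 1.93 and Chgb at 1.82. Paneth cell genes had 3 higher and 2 lower of 12. Pla2g2a, a secreted phospholipase gene, had 61 and 30 counts against 139 and 254, for 4.83 (SE 0.695), where its input change was 1.1 and the difference passed (adjusted p 0.0263). The defensin gene Defa29 had 794 and 623 counts against 48 and 14, for -2.21, with 99.0% of its transcript near-identical to relatives. Tuft cell genes had 2 higher, Sh2d6 and Trpm5, and 1 lower, Dclk1, of 9. With control replicate 1 left out, 1 goblet cell gene, 1 enteroendocrine gene and no tuft cell gene was higher, and Guca2a, Spdef, Sct, Chgb, Sh2d6 and Trpm5 had adjusted p-values of 0.0637, 0.310, 0.246, 0.105, 0.181 and 0.233. With control replicate 2 left out, 2 goblet cell genes, 3 enteroendocrine genes and no tuft cell gene was higher, and without DKO replicate 2 there were 10 goblet cell genes higher. Spdef (0.126), Sct (0.188), Sh2d6 (0.172), Trpm5 (0.0970) and Dclk1 (0.0721) were then not called without control replicate 2, Dclk1 not without control replicate 1 (0.189), and Sct not without DKO replicate 1 (0.136). Of the uptake genes 1 or 2 were higher without control replicate 1 or 2, and 12 were lower without DKO replicate 1.

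Called stem cell and cell cycle genes were mostly lower, with 1 exception in each list, while all called genes of the regenerating epithelium list were higher. Over all genes tested 13.2% were higher and 13.9% lower. Of 18 stem cell genes 5 were lower and 1 higher, with a median of -0.54. Olfm4, a stem cell gene picked after its value was seen, went from 3154 and 3221 counts to 293 and 65, for -1.95, Aqp4 from 447 and 206 to 12 and 0, for -3.46, and Ascl2, the transcription factor of Wnt-driven stem cells, from 83 and 108 to 7 and 2, for -2.09. Cd44 was the member called higher, from 308 and 213 counts to 439 and 176, or 15.1 ± 2.21 to 90.4 ± 8.57 CPM (SD, n = 2), for 2.58. Of 30 proliferation genes 7 were lower and 1 higher in K1, with a median of -0.81, against 28 lower in input with a median of -1.42. Ccna2, Pola1 and Kif11 had log2 fold changes of -1.79, -1.71 and -1.69. The regenerative and fetal-like list had 15 of 20 tested genes higher and none lower, with a median of 2.79, and was led by Areg and Ly6a, described above, and by Anxa10, with 1 and 6 counts against 103 and 20, for 6.24. Without control replicate 1 or 2, 0 or 2 proliferation genes were lower, 10 or 9 regenerative genes were higher, and the adjusted p was 0.197 and 0.432 for Ascl2 and 0.388 and 0.134 for Pola1. Ccna2 and Kif11 were not called without control replicate 1 (0.136 and 0.178), and without DKO replicate 2 there were 21 proliferation genes and 9 stem cell genes lower. Ascl2 (0.126) and Pola1 (0.0889) were not called in limma voom, Ascl2 not in DESeq2 (0.0629), Ccna2 not with thinned libraries (0.0561), and 9 regenerative genes were higher with thinned libraries.

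Markers of cells other than epithelium were low. The 23 leukocyte genes took 0.0811% and 0.0839% of the K1 counts in control and 0.0911% and 0.0443% in DKO, which overlap, and nearly all of these counts were of Cd74, the invariant chain gene that epithelium can also express, with 11899 and 10900 counts against 4686 and 788. Of 17 tested, 3 were higher, a share near the 13.2% of all genes tested, and all 3 were genes of macrophages at low counts. Csf1r had 16 and 14 counts against 71 and 11, Cd68 12 and 9 against 8 and 14, and Adgre1 3 and 4 against 11 and 3. These genes passed the count filter only through their DKO counts, which favours a call of higher. Genes of fibroblasts, muscle and endothelium took 0.0017% and 0.0055% in control and 0.0180% and 0.0112% in DKO, so their share did not overlap, with Lum and Emcn at 0 counts in all 4 libraries. Of 7 tested, Vim and Pecam1 were higher, at 1.76 and 2.32. Col1a1 had 20 and 269 counts in control and 492 and 103 in DKO, which overlap as counts, and did not pass (adjusted p 0.0562). The part these cells played in the other results was not tested. None of 7 red blood cell genes was tested, at 13 counts or fewer in every library. Vim lost its call without control replicate 1 (adjusted p 0.147), Pecam1 without either (0.361 and 0.514), Adgre1 (0.429 and 0.331) and Cd68 (0.290 and 0.303) likewise, and Pecam1 (0.107) and Cd68 (0.112) without DKO replicate 2. The lists then had 1 leukocyte gene higher without either control library and 4 of the fibroblast, muscle and endothelial genes higher without control replicate 2.

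The rises and falls in K1 differed in the make-up of their transcripts. Genes lower in DKO had a median exonic length of 5349 bases and a median GC content of 47.2%, genes higher had 3462 bases and 52.0%, and genes not called 4283 bases and 50.0%. In input the corresponding medians were 3995 bases and 49.7% for lower genes and 4137 bases and 50.3% for higher genes. In J2, which shares the animals but not the libraries, lower genes had 5464 bases and 44.8% and higher genes 3216 bases and 53.3%. Over the 13 alternatives in K1, the median of lower genes stayed between 4967 and 5684 bases and that of higher genes between 3085 and 3875. Protein-coding genes were 94.7% of the lower and 82.4% of the higher genes. Processed pseudogenes had 114 higher and 13 lower of 463, where 13.2% of all genes tested were higher and 13.9% lower. This is a description across genes, which are not independent replicates, and its relation to depth and to read assignment was not tested.

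Most calls in K1 had a counterpart in input, but not all. Of the 1547 genes higher in K1 and tested in both kinds of library, 1036 were higher in input (67.0% of the K1 calls and 41.5% of the input calls), 497 were not called and 14 were lower. Of 1785 genes lower in K1, 1028 were lower in input (57.6% and 43.9%), 725 were not called and 32 were higher. The 32 genes that were lower in K1 and higher in input had a median log2 fold change of -1.15 in K1 and 0.53 in input, opposite signs that their choice fixes. They had a median length of 6336 bases and a GC content of 42.7%. All 32 had a negative change in J2, as did 1758 of the 1784 genes lower in K1 and tested in J2. Of the examples, picked after their values were seen, Braf, a kinase of growth factor signalling, had 1613 and 1185 counts in control K1 and 133 and 47 in DKO, for -1.64 (SE 0.272), while its input change was 0.75. Drosha, which processes microRNA precursors, had K1 and input changes of -0.95 and 0.47, Smad4, the shared mediator of TGF-beta signalling, -1.02 and 0.45, and Xiap, an inhibitor of caspases, -0.96 and 0.58. The 14 genes higher in K1 and lower in input include mt-Nd4, mt-Nd6, Lars2, the leucyl-tRNA synthetase gene of mitochondria, and CT010467.1, annotated as a ribosomal RNA. Lars2 had 424 and 434 counts in control K1 and 372 and 514 in DKO, for 2.69, with an input change of -0.89. Without control replicate 1 or 2, Drosha (0.336 and 0.303), Smad4 (0.399 and 0.225) and Xiap (0.532 and 0.202) were not called in K1, nor were they with thinned libraries (0.0785, 0.0565 and 0.0584). With K1 calls made without control replicate 1 or 2, 1 or 8 genes were lower in K1 and higher in input and 6 or 5 the other way. Without DKO replicate 1 they were 134 and 84, without DKO replicate 2 59 and 42, and with thinned libraries 20 and 16.

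**Figure D4:**
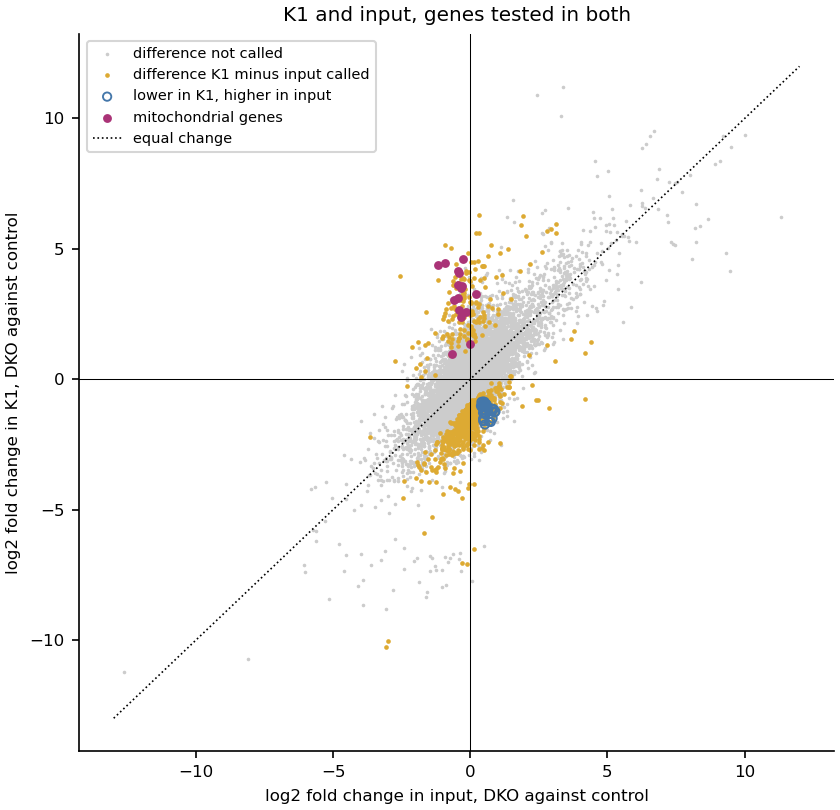
Log2 fold change, DKO against control, in input (x axis) and in K1 (y axis) for genes tested in both, with the genes whose difference passed in yellow. Mitochondrial genes lie above the dotted line of equal change. Their median input change is -0.39 for the 13 protein-coding genes and -1.06 for the 2 ribosomal RNAs. The 32 ringed genes lie below 0 in K1 and above 0 in input.

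By the fixed rule the named differences also include Eid3, a chromatin and repair factor gene, which rose in K1 from 17 and 15 counts to 114 and 144 at input counts of 79 and 95 against 94 and 96, a difference of 5.19 (SE 0.575). At the other end, Ros1 and Edaradd differed by -7.46 and -7.29 in the fit, values that rest on 0 counts in DKO K1. With the DKO K1 libraries placed at 3 counts each the differences were -0.78 and -0.60. Igip differed by -4.34 (SE 0.911), and Nxt2, at 217 and 116 counts against 3 and 0 in K1, by -3.52 (SE 0.787). Il7, an epithelial cytokine gene, had 51 and 30 counts in control input and 225 and 204 in DKO input, but 75 and 41 against 6 and 6 in K1, a difference of -3.46 (SE 0.623). Sprr2a2, a cornified envelope gene whose transcript is wholly near-identical to relatives, differed by -4.08. None of these 6 lower differences was called with control replicate 1 left out (adjusted p 0.257 to 0.584) or with control replicate 2 left out (0.136 to 0.288), and Eid3 had 0.206 and 0.136. With thinned counts Ros1 (0.142), Edaradd (0.148), Igip (0.0682) and Nxt2 (0.12) were not called. Ros1 and Edaradd were not called with DESeq2 size factors (0.0535 and 0.0512) or without DKO replicate 1 (0.0819 and 0.0769), nor Igip and Nxt2 without DKO replicate 2 (0.0619 and 0.0768).

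The change in K1 was also set beside that in J2, the pulldown from the same animals with the other antibody. Of 14285 genes tested for a difference between the K1 and J2 changes, 0 were called (0%), with 506 at an unadjusted p under 0.05, and DESeq2 called 1. On simulated counts this fit recovered 0% of the changes put in, so the 0 calls do not show that the changes are alike. Of the 1558 genes higher in K1 and tested in both, 635 were also called higher in J2 (40.8% of the K1 and 91.4% of the J2 calls), and of 1784 lower 665 were (37.3% and 83.3%), with none called in opposite directions. For the genes on which the K1 comparison turns, the J2 changes were 2.88 for mt-Nd5, 3.80 for mt-Rnr2, 4.24 for Gm26917, 5.49 for Ifit2, -2.56 for Mavs and -5.20 for Lct. Of these, mt-Nd5 (adjusted p 0.414), mt-Rnr2 (0.0959) and Gm26917 (0.368) did not pass in J2. A difference that misses the threshold does not show that the antibodies captured the same RNA, and without DKO replicate 1 there were 1227 calls.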

How the data were processed

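The deposited files hold whole-number counts per gene that the authors made, without strand by the name the files carry, and the submitters' processing notes list STAR 2.7.10b, UMI-tools 1.1.4, SAMtools 1.17 and HTSeq 2.0.2 with mm10 and GRCm38.p4, giving no role or order. Rows that name no gene were dropped and used only for the shares of reads outside genes, ambiguous or aligned to several places. The K1 comparison was fitted with edgeR 4.0.16 (TMM scaling, filterByExpr at a minimum count of 10, quasi-likelihood test, 2 residual degrees of freedom), with p-values adjusted by Benjamini and Hochberg over all 12888 genes tested and called under 0.05. Differences from the input and J2 changes were interaction terms over 8 libraries each. Total gene counts per K1 library were 2220291 to 16139531, and counting intervals and the floor of 3 counts cover counting error only. The labels name an animal for each library, so input, J2 and K1 libraries of 1 animal are paired (correlation of K1 and input deviations 0.294 in control and 0.208 in DKO animals), while control and DKO K1 libraries share only a number. Gene names, types and exonic lengths came from GENCODE M21 (48058 of 48526 gene rows matched), GC content from the longest transcript, and near-identical sequence from blastn 2.17.0 at 97% identity over at least 100 bases. Named genes are the targeted genes, the 12 largest rises and falls among called, non-overlapping genes with a mean of at least 50 counts and no predicted or clone-based symbol (Gm, Rik, AC, AL, CT or BC numbers), the 10 with the most counts in each group, up to 3 called members and the member of highest CPM per list, and the 6 highest and 6 lowest differences. The genes named outside this rule (among them Adar, Ddx58, Dicer1, Dtx3l, Lgals3bp, Ripk3, Mlkl, Sesn1 and Muc2) were picked after their values were seen, and the members and gene lists were chosen with earlier results of these data known. The alternatives were DESeq2 1.42.0, its size factors in edgeR, no TMM, no filter, all 12 libraries, limma voom 3.58.1, a replicate block, scaling without mitochondrial and ribosomal RNA, counts thinned to the smallest gene-count total (several-place reads were not matched) and leaving out each library, with length, GC and opposite calls under each added after seeing the data. The fits were tested on simulated counts. There the K1 fit recovered 6% of 2-fold and 81% of 4-fold changes. The difference from input recovered 2% and 54%, and the difference from J2 0% and 0%. A result on 1 gene is not reported here.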

Additional observations from a re-analysis of the deposited data

Results flagged for a closer look

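Reads aligned to several places, which no comparison of genes used, were 25.9% of the listed reads in DKO K1 replicate 1 and 46.7% in DKO K1 replicate 2, above the 6.02% and 6.56% of the control K1 libraries. Their part in the gene results was not tested.

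The change in K1 differed from that in input, by the test of the difference itself, for the 12 genes named by rule. It was higher in K1 for mt-Rnr1 by 5.38, mt-Rnr2 by 5.21, Eid3 by 5.19, mt-Atp8 by 4.71, mt-Nd6 by 4.43 and mt-Nd5 by 4.31 on the log2 scale. It was lower in K1 for Ros1 (-7.46), Edaradd (-7.29), Igip (-4.34), Sprr2a2 (-4.08), Nxt2 (-3.52) and Il7 (-3.46), of which Ros1 and Edaradd rest on 0 counts in DKO K1. Groups of 2 libraries are too small for a test of outlying samples.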

How the results depend on the processing

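The main limit is 2 animals a group with DKO libraries of lower depth. The K1 comparison called 1149 to 5819 genes over the fits that leave out 1 library. The difference from input called 523 genes with DESeq2 size factors (205 higher, 318 lower), 1763 with no filter, 1912 with the replicate block, 258 with thinned counts, and 0 to 3802 with 1 animal left out. DESeq2 called 1257 and scaling without TMM 1299 (172 higher, 1127 lower). The difference from J2 called 1 gene with DESeq2, 1 with the replicate block, and 0 to 1227 with 1 animal left out. With the replicate number as a block, the K1 comparison called 3377 genes, and mt-Nd5 (adjusted p 0.214), Gm26917 (0.147), mt-Nd1 (0.0757) and Ascl2 (0.0505) were not called; same-numbered control and DKO libraries had a correlation of deviations of -0.0957. The cause of each of these shifts was not tested.

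Values near 0 turned. Leave-one-out values ran from -1.33 to 0.12 for Dtx3l. List medians ran from -0.49 to 0.11 for cell death, -1.24 to 0.20 for enterocyte, -0.11 to 0.62 for Paneth cell, -0.056 to 0.76 for tuft cell and -0.50 to 0.68 for long noncoding RNA genes. The cell death median was -0.15 with all 12 libraries, -0.060 in limma voom, -0.30 with no filter, -0.066 with the block, -0.0087 with thinned counts and -0.35 without TMM. The SAGA and ATAC median was 0.094 with thinned counts, the Paneth median -0.035 without TMM, and the small nucleolar median -1.77 with no filter. The long noncoding median was -0.38 with all 12 libraries, -1.18 with no filter and -0.22 without TMM. Of the values for named genes in K1, 1724 kept their direction and side of the threshold, 139 lost the call, 51 gained it and 1 turned.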
